A study of Mus musculus with 4 samples.

Results

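Peaks of HTATSF1 were described at 6 genes of the core pluripotency network of mouse embryonic stem cells: Pou5f1, Nanog, Sox2, Klf4, Myc and Esrrb. A peak was assigned to a gene when it lay inside the gene body or within 5 kb of it, in mm9 positions given for these 6 genes. This gave 17 of the 19489 peaks of replicate 1 and 11 of the 14118 peaks of replicate 2. The genes were chosen by name and not by their peaks, though with earlier results of these data known. The data come from chromatin immunoprecipitation followed by sequencing (ChIP-seq), in which DNA bound to a protein is recovered with an antibody, sequenced, and searched for stretches where reads pile up (peaks). All libraries were made from one kind of cell: embryonic stem cells from tatsf1 flox/flox CreERT2 mice, whose floxed Htatsf1 gene can be cut out by a Cre recombinase that a drug switches on, and which had not been so treated. The HTATSF1 group has 2 libraries, made with a rabbit antibody against a peptide of the mouse protein, and the other 2 libraries are input chromatin without antibody, not analysed here. The cells grew on mouse embryonic fibroblasts, and whether these were removed before chromatin was made is not given in the sources used here. No cells lacking HTATSF1 were compared, so the signal has no check against loss of the protein, and the files hold no expression values by which the cell type could be checked.

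HTATSF1 (HIV-1 Tat specific factor) carries RNA recognition motifs and is known to bind a core component of the U2 small nuclear ribonucleoprotein, a part of the splicing machinery. Much of splicing takes place while the RNA is still being made, so such proteins can be recovered with the chromatin of transcribed genes. Pou5f1 (also called Oct4), Sox2 and Nanog encode transcription factors that bind their own and each other's control regions and hold embryonic stem cells undifferentiated. Esrrb, an orphan nuclear receptor, and Klf4, a zinc-finger factor, belong to the same network, and Myc drives growth and proliferation. Klf4 and Myc are, with Pou5f1 and Sox2, the classical reprogramming factors.

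Each peak carries a score from the authors' peak caller whose scale is not stated in the sources used here. No score lies under 50.01 in replicate 1 or 50 in replicate 2. Scores are therefore given as a percentile rank within the list (0 for the lowest-scored peak and 100 for the highest, ties averaged), and the percentiles of both lists are set side by side. Peaks count as shared when a peak of each list overlaps by at least 1 bp. The read depth behind the lists is unknown, so a missing peak cannot be read as missing binding. The labels do not say that the libraries came from separate cultures, and with 2 libraries of 1 group no test between conditions exists, so all values below are descriptions.

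Promoter sequence is shown for Klf4 and Nanog, whose starts lay under a peak in both lists, and for Esrrb, whose start lay under none. RefSeq promoters of build GRCm38.p6 matched 5 of the 6 genes by symbol (Pou5f1, Nanog, Sox2, Klf4 and Esrrb). Each line gives the 250 bases before the RefSeq start that lies at the start of the gene, 5′ to 3′ on the gene's strand. Capitals mark matches, on either strand, to 5 promoter motifs. The Sp and KLF family element searched, called the GC box, was GGGCGG. The element bound by the factor NF-Y was CCAAT. The main part of the octamer bound by the Pou5f1 protein was ATGCAAA. The core bound by Sox factors was CATTGT, and the element bound by the basal transcription machinery was TATAAA. Matches on the opposite strand appear as their reverse complement, and matches that overlap or touch run together.
Klf4: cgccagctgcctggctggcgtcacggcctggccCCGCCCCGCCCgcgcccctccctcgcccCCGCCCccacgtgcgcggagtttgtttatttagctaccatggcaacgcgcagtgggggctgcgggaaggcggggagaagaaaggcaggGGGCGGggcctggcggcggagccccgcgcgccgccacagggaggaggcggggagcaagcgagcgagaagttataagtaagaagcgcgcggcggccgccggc
Nanog: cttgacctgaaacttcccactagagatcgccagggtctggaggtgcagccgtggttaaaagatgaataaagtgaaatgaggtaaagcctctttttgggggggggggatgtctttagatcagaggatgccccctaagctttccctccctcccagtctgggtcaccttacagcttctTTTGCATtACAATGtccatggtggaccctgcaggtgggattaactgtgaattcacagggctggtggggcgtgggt
Esrrb: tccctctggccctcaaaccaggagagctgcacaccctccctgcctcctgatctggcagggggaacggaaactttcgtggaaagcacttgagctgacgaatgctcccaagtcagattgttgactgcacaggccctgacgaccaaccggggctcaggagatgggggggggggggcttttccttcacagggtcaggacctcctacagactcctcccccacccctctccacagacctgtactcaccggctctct
The Klf4 stretch (GRCm38.p6 chr4:55532476-55532725, minus strand) held 4 GC boxes, of which a pair overlap by 1 base. At least 1 GC box stood in 32.7% of the 32851 RefSeq promoters in the same 250 bases. The Nanog stretch (chr6:122707239-122707488, plus strand) held the octamer part from 75 to 69 bp before the start and the Sox core from 67 to 62 bp before it. Matches to these were present in 4.12% and 10.7% of all promoters, and both together, at any spacing, in 0.642%. The Esrrb stretch (chr12:86360867-86361116, plus strand) held none of the 5 motifs. CCAAT stood in 33.8% of promoters and TATAAA in 12.4%. The base composition also differed: the Klf4 stretch was 74.0% G and C with 32 CpG pairs, the Nanog stretch 52.0% with 3, and the Esrrb stretch 60.8% with 6, against a median of 52.4% G and C over all promoters. Sox2, whose start lay under a weak peak in 1 list, had 72.0% G and C and 27 CpG pairs, and Pou5f1 62.0% and 8. The Sox2 stretch, not printed here, held 2 GC boxes, 1 CCAAT box and the octamer part, from 99 to 93 bp before the start. That of Pou5f1, whose start lay under a peak in replicate 2 only, held 1 GC box and 1 CCAAT box. Starts under a peak thus included both CpG-rich promoters, such as that of Klf4, and the CpG-poor promoter of Nanog. A match of letters is not a shown binding site.

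All 6 genes had at least 1 peak in replicate 1, and 5 of 6 had one in replicate 2, where Sox2 had none. At 4 genes (Pou5f1, Nanog, Klf4 and Myc) peaks of the lists overlapped each other. At Esrrb both lists had peaks, but none overlapped. The transcription start itself was covered at 4 genes in each list: Nanog, Klf4, Myc and Sox2 in replicate 1, and Nanog, Klf4, Myc and Pou5f1 in replicate 2. So 3 starts were covered in both lists, 5 in at least 1, and that of Esrrb in neither. As background, peaks covered 0.345% of all positions between the first and last peak of each chromosome in replicate 1, 0.18% in replicate 2 and 0.118% in both. That background counts positions regardless of genes. A share over the starts of other genes was not computed, since no mm9 gene positions other than those of the 6 genes were used. It therefore cannot be said whether these genes differ from other genes in their peaks.

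**Figure D1:**
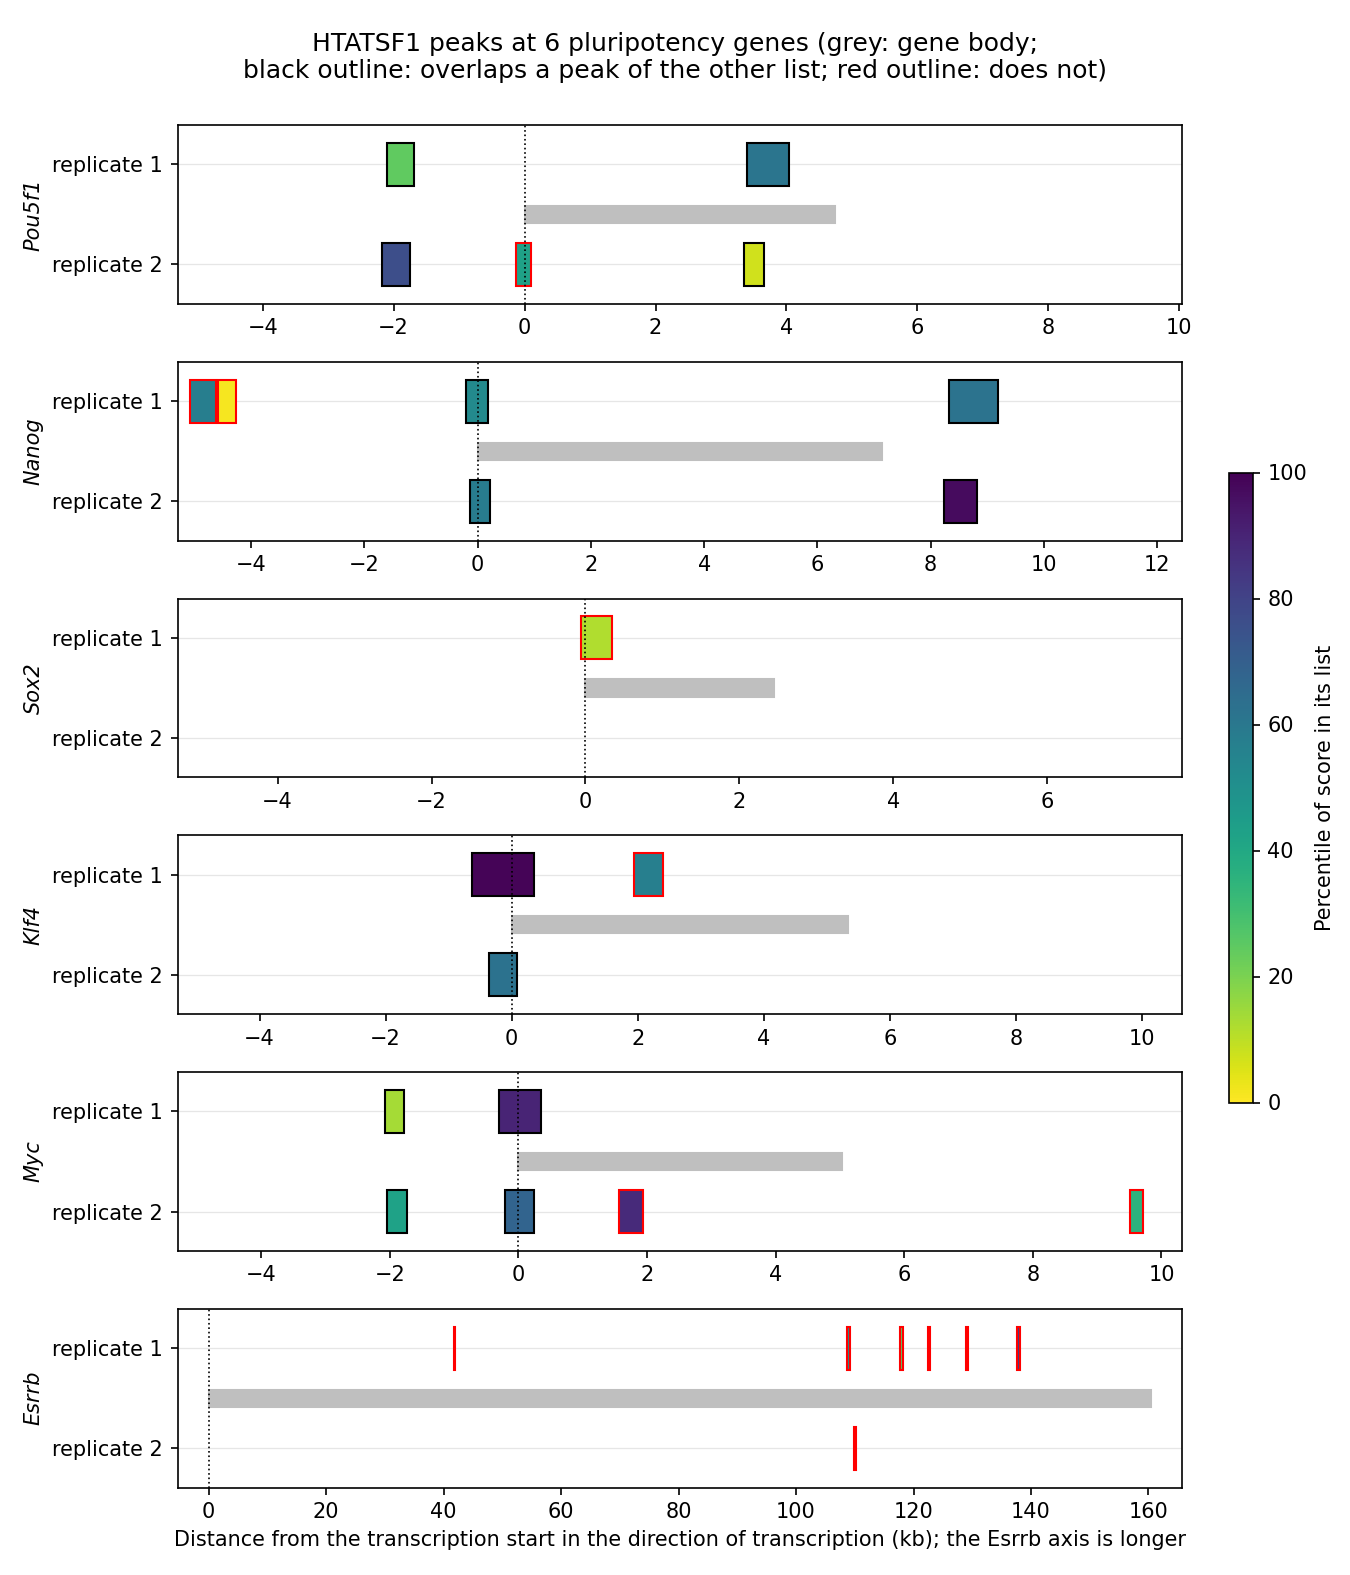
HTATSF1 peaks (boxes) of replicate 1 and replicate 2 at the 6 genes, by distance from the transcription start in kb along the direction of transcription. Fill colour is the percentile of the score within its list (on the longer Esrrb axis the boxes are too narrow to show it), a black outline marks a peak that overlaps one of the other list and a red outline one that does not; Nanog, Klf4 and Myc have a box over the start in both lists, and Esrrb has none there.

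At Klf4 (chr4:55540010-55545347, minus strand) the peak at the start was the highest-ranked of all replicate 1 peaks at these genes. It lay at chr4:55544992-55545979, was 988 bp wide, reached from 632 bp before the start to 355 bp after it, and stood at percentile 99.1 (score 380.8). The replicate 2 peak, chr4:55545266-55545708, lay wholly inside it, from 361 bp before the start to 81 bp after it, at percentile 62.2 (score 84.47). The midpoints were 138.5 and 140 bp upstream of the start, so position recurred closely while rank did not. Both peaks covered all of the 250 bases before the mm9 start. The 4 GC boxes of the RefSeq sequence above lie in the 250 bases before the GRCm38 start, but the gene's length differs by 1 bp between the builds and the identity of the starts was not checked by sequence. A further replicate 1 peak inside the gene, 1934 to 2392 bp past the start (percentile 57.1), had no replicate 2 peak closer than 1853 bp. Of windows as long as Klf4 with its flanks, laid end to end along every chromosome, 8.63% held a replicate 1 peak, 6.72% a replicate 2 peak and 5.09% both.

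At Myc (chr15:61816893-61821916, taken as plus strand from general knowledge, on which the directions given here rest) both lists had a peak over the start and another about as far upstream in each. The start peak of replicate 1, chr15:61816592-61817245, stood at percentile 89.9 (score 205.12), and that of replicate 2, chr15:61816690-61817132, at percentile 68.3 (score 92.26). The replicate 2 peak lay inside the replicate 1 peak, and the midpoints were 25.5 and 18 bp past the start. The upstream peaks were weaker in both lists: the replicate 1 peak, 2069 to 1787 bp before the start, stood at percentile 13.4, and the replicate 2 peak, 2041 to 1727 bp before it, at 42.4. Replicate 2 alone had a peak inside the gene, 1571 to 1938 bp past the start, at percentile 87.9 (score 138.33). It outranked the start peak of its own list, yet the nearest replicate 1 peak was 1219 bp away. A last replicate 2 peak lay 4483 bp beyond the gene's end, on the side of Pvt1, the next gene in GRCm38, at percentile 35.6. Of windows of this length, 8.48% held a replicate 1 peak, 6.59% a replicate 2 peak and 4.98% both.

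At Nanog (chr6:122657507-122664651, plus strand) the start peaks agreed closely in place and rank. The replicate 1 peak, chr6:122657307-122657695, ran from 200 bp before to 188 bp after the start at percentile 52.5 (score 91.72). The replicate 2 peak, chr6:122657369-122657717, ran from 138 bp before to 210 bp after it at percentile 58.3 (score 80.33). Each reached farther upstream of the mm9 start than the octamer part and Sox core lie from the GRCm38 start in the sequence above. The gene has the same length in both builds, 7145 bp, but the identity of the starts was not checked by sequence. The highest-ranked Nanog peak of each list was not at the start but past the gene's end: 1172 bp beyond it in replicate 1 (chr6:122665823-122666688, percentile 61.8) and 1097 bp beyond it in replicate 2 (chr6:122665748-122666321, percentile 96.9, score 208.86). The latter was the highest-ranked of the replicate 2 peaks at the 6 genes. It faces Slc2a3, a glucose transporter gene that is the next gene in GRCm38, so its assignment to Nanog rests on distance alone. Replicate 1 also had a pair of neighbouring peaks upstream, at 5084 to 4617 bp (percentile 57.6) and 4592 to 4276 bp (percentile 1.28) before the start. No replicate 2 peak lay closer than 4138 bp to either. An upstream enhancer of Nanog is known in this direction, and no enhancer positions were compared here. Of windows of this length, 9.41% held a replicate 1 peak, 7.37% a replicate 2 peak and 5.63% both.

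At Pou5f1 (chr17:35642977-35647722, plus strand) the shared peaks lay upstream and inside the gene rather than at its start. The upstream peak of replicate 1, chr17:35640878-35641281, lay 2099 to 1696 bp before the start at percentile 24.5 (score 63.8). That of replicate 2, chr17:35640798-35641233, lay 2179 to 1744 bp before it at percentile 76.2 (score 105.76), and 356 bp were common to both. Pou5f1 is known to have a distal enhancer upstream of its promoter that is used in embryonic stem cells, and no enhancer positions were compared here. Inside the gene the ranks were the other way round. The replicate 1 peak, 3400 to 4046 bp past the start, stood at percentile 61.3 (score 105.76) and the replicate 2 peak, 3353 to 3661 bp past it, at percentile 7.13 (score 51.92). The start was covered in replicate 2 only, by a peak of 233 bp from 135 bp before to 97 bp after it at percentile 42.7. The nearest replicate 1 peak to it was 1561 bp away. Of windows of this length, 8.37% held a replicate 1 peak, 6.5% a replicate 2 peak and 4.92% both.

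At Sox2 (chr3:34548927-34551382, plus strand), a gene with a single exon, HTATSF1 was called in replicate 1 only and weakly. Its peak, chr3:34548868-34549277, ran from 59 bp before to 350 bp after the start at percentile 11.8 (score 55.31), close to the lowest score in the list. Sox2 overlaps the long non-coding RNA gene Sox2ot in GRCm38, and whether the peak also lies in Sox2ot was not checked. Replicate 1 had 3 further peaks just outside the 5 kb limit, each ranked higher than the peak at the start: 1 upstream with a gap of 7073 bp to the gene (percentile 54.1) and 2 downstream with gaps of 11433 bp (percentile 28.0) and 15917 bp (percentile 58.4). The nearest replicate 2 peak to Sox2 was at chr3:33980129-33980404, 568.5 kb upstream. Of windows of this length, 7.32% held a replicate 1 peak, 5.63% a replicate 2 peak and 4.22% both. The Sox2 peak was also absent when the replicate 1 list was shortened to the 14118 highest-scored peaks, the length of the replicate 2 list.

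At Esrrb (chr12:87702066-87862536, plus strand), at 160.5 kb by far the longest of the 6 genes, all peaks lay deep inside the gene. Replicate 1 had 6 peaks. The one nearest to the start began 41.7 kb past it and stood at percentile 9.66. The other 5 lay between 108710 and 138153 bp past the start, with percentiles of 51.9, 25.5, 0.0641, 8.55 and 82.3 in order along the gene. The highest of them was chr12:87839661-87840219 (score 164.26), and no replicate 2 peak lay closer than 27464 bp to it. The only replicate 2 peak, chr12:87811878-87812197, began 109.8 kb past the start at percentile 64.0 (score 86.74). It missed the replicate 1 peak at chr12:87810776-87811225 by 653 bp. Esrrb overlaps another gene, Gm40483, in GRCm38, and whether any of these peaks lies in both was not checked. The background at this length is far higher than for the other genes: 38.7% of windows as long held a replicate 1 peak, 34.9% a replicate 2 peak and 30.4% both. Only the start of the gene body given above was used as the start, and exons and introns were not used for any gene. RefSeq lists further starts in GRCm38, 60527 bp from the one used for Esrrb, 2775 bp for Pou5f1 and 76 bp for Nanog. Whether a peak covers any of these was not checked.

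In sharing, and in replicate 1 also in rank and width, the peaks at the 6 genes gave values near those of the whole lists. In replicate 2 the median rank and width of these peaks were higher than those of the list. Their median percentile was 51.9 in replicate 1 (17 peaks, range 0.0641 to 99.1) and 62.2 in replicate 2 (11 peaks, range 7.13 to 96.9), where the median of each list is 50 by construction. In replicate 1, 9 of 17 lay above percentile 50 and 1 above 90. In replicate 2, 7 of 11 lay above 50 and 1 above 90. Median widths were 410 bp and 349 bp, beside 402 bp and 289 bp over the whole lists. Of the replicate 1 peaks at these genes, 7 of 17 (41.2%, exact Clopper-Pearson 95% interval 18.4 to 67.1%) overlapped a replicate 2 peak, beside 45.6% of all replicate 1 peaks. Of the replicate 2 peaks, 7 of 11 (63.6%, interval 30.8 to 89.1%) overlapped a replicate 1 peak, beside 65.2% of all. These shares are near the background and the intervals, which cover counting error only, are wide. The intervals also treat peaks as independent, although several lie at the same gene. Esrrb held 6 of the 10 unshared replicate 1 peaks and no shared one, so the replicate 1 share rests in part on this 1 gene. By position, replicate 1 had 4 peaks over a start, 4 upstream, 8 inside genes (6 of them in Esrrb) and 1 downstream, and replicate 2 had 4, 2, 3 and 2.

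The rank of a shared peak often changed between lists. There were 7 pairs of overlapping peaks, with 3 higher in replicate 1 and 4 higher in replicate 2. The percentiles of a pair differed by a median of 35.0 points, from 5.80 at the Nanog start to 54.2 inside Pou5f1. Over all 8882 shared replicate 1 peaks, each with its highest-scored partner, the median difference was 19.0 points (quartiles 7.52 and 36.7). Both members of the pair were above percentile 50 in 4 of the 7 pairs (the starts of Nanog, Klf4 and Myc, and the peak downstream of Nanog) and in 50.9% of all shared peaks. Ranked among shared peaks only, the Nanog start peaks stood at percentiles 32.1 and 45.5, and the start peaks of Klf4 (98.0 and 50.1) and Myc (80.6 and 56.8) above 50 in both lists. The shared peaks upstream of Myc and of Pou5f1 and inside Pou5f1 were each in the lower part of at least 1 list. The order of the genes by rank of their start peaks was Klf4, Myc, Nanog, Sox2 in replicate 1 and Myc, Klf4, Nanog, Pou5f1 in replicate 2.

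**Figure D2:**
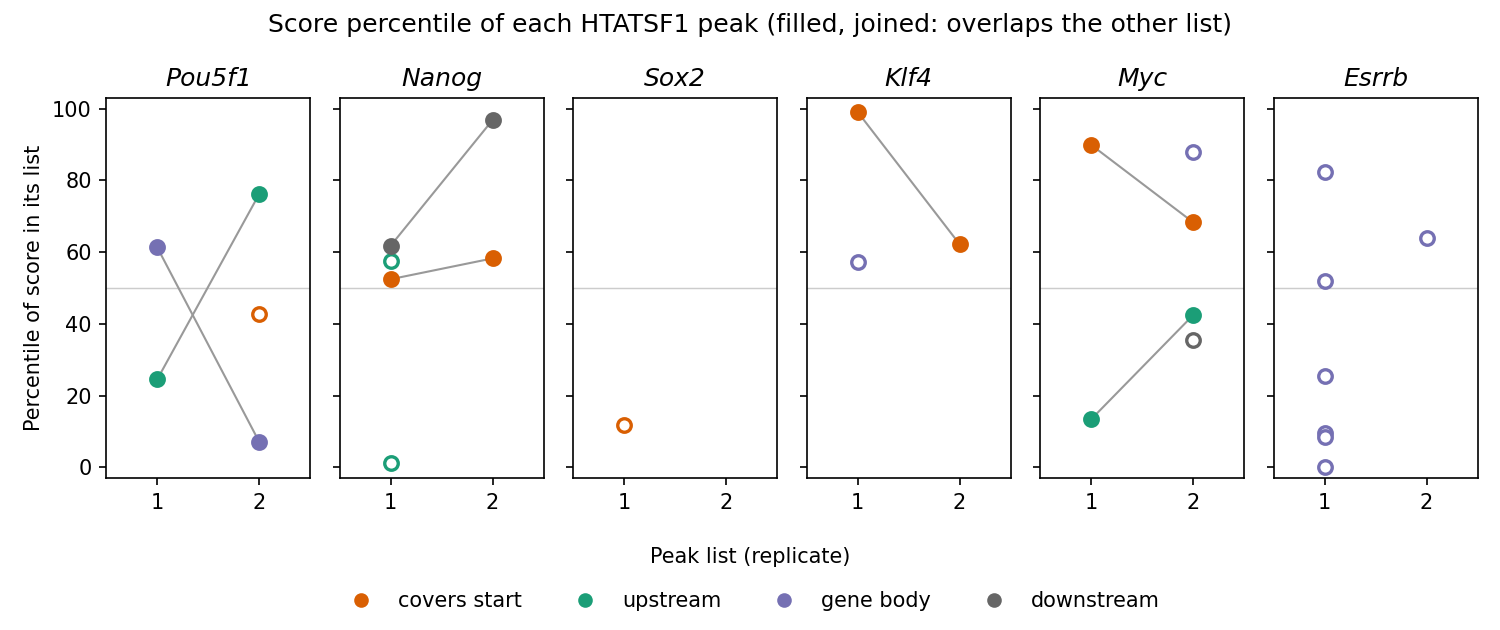
Percentile of the score of every peak at the 6 genes within its own list (0 to 100), for replicate 1 and replicate 2, coloured by position. Filled points joined by a line overlap between the lists and open points do not; the start peaks of Nanog, Klf4 and Myc stay above 50 in both lists, while the lines of Pou5f1 cross.

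The wider surroundings of the 6 genes differed in how many HTATSF1 peaks they held. Within 100 kb on either side of the start, Pou5f1 had 10 peaks in replicate 1 and 12 in replicate 2, and Nanog 14 and 6. Of all 200 kb windows laid along the chromosomes, 97.0% and 99.4% held fewer peaks than the window around Pou5f1, and 98.9% and 95.03% fewer than that around Nanog. Klf4 had 5 and 3 peaks, Myc 2 and 5, Sox2 4 and 0, and Esrrb 1 and 0. The window ends inside the 160.5 kb Esrrb gene, whose other peaks, 108710 to 138153 bp past the start, are not counted in it. The median window held 0 peaks in both lists, and 58.3% and 62.0% of windows were empty. In replicate 1, 89.4% of windows held fewer peaks than that around Klf4, 85.6% fewer than Sox2, 71.8% fewer than Myc and 58.3% fewer than Esrrb. In replicate 2, 84.9% held fewer than Klf4 and 93.1% fewer than Myc. Within 500 kb the counts were 49 and 42 at Pou5f1, 28 and 19 at Nanog, 24 and 12 at Esrrb, 9 and 6 at Klf4, 4 and 8 at Myc, and 7 and 0 at Sox2. Of all 1000 kb windows, 98.4% in replicate 1 and 99.1% in replicate 2 held fewer peaks than that around Pou5f1. The shares were 93.7% and 92.9% for Nanog, 91.7% and 84.8% for Esrrb, 71.9% and 68.0% for Klf4, and 51.8% and 75.8% for Myc. For Sox2 the share was 65.2% in replicate 1, and in replicate 2, 29.99% of 1000 kb windows were as empty as its own. Windows were laid regardless of genes, and the number of genes in each was not used.

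**Figure D3:**
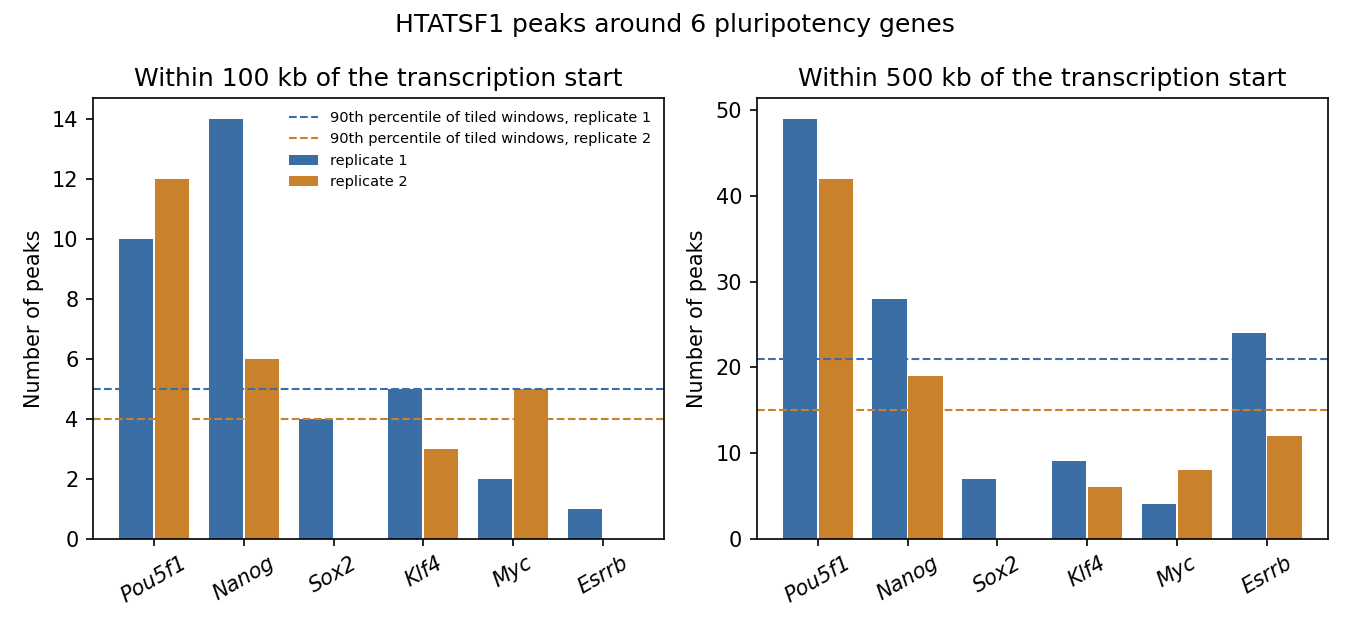
Number of HTATSF1 peaks (bars) within 100 kb and within 500 kb of the transcription start of each gene in replicate 1 and replicate 2. Dashed lines give the 90th percentile of windows of the same size laid along all chromosomes (5 and 4 peaks for the smaller windows, 21 and 15 for the larger); Pou5f1 and Nanog lie above them in both lists and both sizes, and Sox2 has no replicate 2 peak.

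Outside the 5 kb limit, shared peaks within 100 kb of a start were found at Klf4, Nanog and Pou5f1. At Klf4 they lay downstream, on the side of the gene's end. The nearer began 17.2 kb past the start in replicate 1 (chr4:55527624-55528162, percentile 46.5) and 17.3 kb past it in replicate 2 (chr4:55527534-55528056, percentile 85.3), where it outranked the peak at the start of Klf4. The farther began 68.0 kb past the start in replicate 1 and 67.8 kb in replicate 2. Nanog had a shared peak 44.0 kb upstream in replicate 1 (chr6:122612777-122613508) and 44.2 kb upstream in replicate 2, and another that began 34.8 and 34.9 kb past its start. Pou5f1 had a shared peak 65.8 kb upstream in both lists and another that began 10.9 and 11.0 kb past its start. Myc, Sox2 and Esrrb had no shared peak in this range apart from those at Myc described above. The peaks closest to the 5 kb limit were, inside it, the upstream Nanog peak with a gap of 4617 bp to the gene and the downstream Myc peak with a gap of 4483 bp, and, outside it, the replicate 2 and replicate 1 peaks downstream of Pou5f1 with gaps of 5886 and 6198 bp (percentiles 18.8 and 31.0).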

How the data were processed

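HTATSF1 ChIP-seq peak lists of 2 immunoprecipitated libraries were used, grouped and numbered by their titles. The authors deposited 1 list per library, not a pooled one, with start, end, name and score for every peak. The build was mm9, per the submitters' processing notes, and the tools included Bowtie, Picard 1.82 and bedtools. Peak names begin with MACS. The sources used here give no caller version, threshold, control or scale of the deposited score. Positions, the other deposited values, are printed 1-based.

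Gene bodies of the 6 genes, in mm9, were set with the gene list. The genes, flank and alternatives were chosen with earlier results of these data known. All 6 genes are named, with every peak within 5 kb or the nearest one. Neighbouring genes, promoter sequences and the strand of 5 genes come from RefSeq tables of GRCm38.p6, whose coordinates were not mixed with mm9. The strand of Myc was set by hand as plus, from general knowledge. Background windows were laid end to end between the first and last peak of each chromosome. A window or region counted every peak that touched it. Overlap and window code was tested on simulated peaks. Read depth is unknown. Alternatives varied the flank, the overlap, the score and the list length. The software was Python 3.11.15 with pandas 2.3.3, numpy 2.4.6, matplotlib 3.10.9 and scipy 1.17.1.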

Additional observations from a re-analysis of the deposited data

How the results depend on the processing

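Of 30 alternative counts, 28 stayed within 1.5 times the main count. With 6 genes, a gene count of 5 or 6 could not rise past this limit, and a fall from 5 to 4 stays within it. The number of genes with a peak in both lists was 5 with flanks of 0, 1, 2, 10 and 20 kb, with the 50% of peaks scored highest in either list, and with lists of equal length. It fell to 4 within 5 kb of the start and to 3 within 1 kb of it, where fewer bases were searched. It was 4 when peaks of the lists had to overlap by 1 bp, where Esrrb drops out. It was 3 when they had to overlap by at least 50% of both. Klf4, with a replicate 1 peak of 988 bp against 443 bp, then drops out as well. Either list alone gave 5 to 6 genes. Shared peaks numbered 5 to 8 in each list, against 7, under the other overlap rules. Ranked within their own chromosome, the 28 percentiles moved by at most 3.79 points. Ranked among shared peaks only, the 14 percentiles of shared peaks were all lower, by 1.08 to 20.3 points, and the Nanog start peaks fell below 50 in both lists (32.1 and 45.5), and the replicate 1 peak downstream of Nanog stood at 41.5. Settings added after the data were seen were equal lengths for both lists together, flanks for replicate 1 and the higher-scored 50% of single lists. No paired analysis was possible because no values of the numbered input libraries were used here. Unknown depth limits what a peak missing from 1 list can show, as at Sox2.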
